A study of Mus musculus with 4 samples.

Results

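The S100 calcium-binding proteins were examined in the blood of aging mice treated with naringenin (Nar), a flavonoid. The members were the rows of the deposited expression table listed under the symbols S100a1, S100a4, S100a6, S100a8, S100a9, S100a10, S100a11 and S100a13, and all 8 had values in the 4 libraries, among 17823 genes with values. S100a8 and S100a9, the neutrophil pair, were set against the other 6, which are expressed in many cell types. Messenger RNA was purified from the blood of C57BL/6 mice with oligo(dT) beads and sequenced. Libraries Nar 1 and Nar 3 came from mice given naringenin for 30 days, and libraries Ctrl 1 and Ctrl 3 from mice given phosphate-buffered saline (PBS) for 30 days. The labels call all of the mice adult, and the methods of the study describe them as about a year old and injected through the tail vein. All 4 libraries are of 1 strain. The labels do not say whether the libraries of a group came from separate animals, so p-values here measure the spread between these libraries, which may be technical. That spread was taken in part from other genes of similar level, not from each gene alone.

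S100 proteins are small calcium sensors built from paired EF-hand loops. Binding of calcium opens a surface through which they grip other proteins. S100A8 and S100A9 form calprotectin, an abundant protein of the neutrophil cytosol that is released in inflammation, binds zinc and manganese away from microbes and acts on the receptors TLR4 and RAGE. The other members work mostly inside cells: S100A10 and S100A11 bind annexins at membranes, S100A4 binds non-muscle myosin, S100A6 binds the calcyclin-binding protein and annexin A11, S100A13 takes part in the release of FGF1 and interleukin-1 alpha, and S100A1 is best known for calcium handling in heart muscle.

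All 8 genes lie on chromosome 3 (RefSeq annotation of GRCm38.p6; GRCm38 is the build named in the submitters' processing notes). S100a8 (NCBI Gene 20201) is at chr3:90669071-90670034 and S100a9 (NCBI Gene 20202) at chr3:90692630-90695721, on the opposite strand and 22595 bases away. S100a1 (chr3:90511034-90514330), S100a13 (chr3:90514233-90524581), S100a4 (chr3:90603770-90606045) and S100a6 (chr3:90612894-90614414) lie in the same stretch. S100a11 (chr3:93520496-93526288) and S100a10 (chr3:93555117-93564645) lie 28828 bases from each other and 2824774 bases beyond S100a9. S100a1 and S100a13 run away from each other from a shared start region, and their annotated spans overlap by 98 bases. The library preparation in the labels names no step that marks the strand, so reads from that overlap cannot be assigned to either gene. A pseudogene of S100a11 is annotated elsewhere in the genome, and the value of S100a11 is uncertain as far as alignment split reads between them.

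RefSeq promoter windows of 300 bases (250 before to 50 after the start) were found for 7 of the 8 members. Each was set on the outer start of the annotated gene, except that of S100a13, which was set on a start 202 bases inside it, at chr3:90514435. They were searched on both strands for the TATA box TATAAA, the PU.1 core GAGGAA, the C/EBP site TTGCNNAA, the AP-1 site TGANTCA and the CCAAT box CCAAT. The windows of the 2 neutrophil genes and of S100a11 are shown because they hold most of the matches, and capitals mark the matches, none of which overlap.
S100a8 (chr3:90668821-90669120, plus strand): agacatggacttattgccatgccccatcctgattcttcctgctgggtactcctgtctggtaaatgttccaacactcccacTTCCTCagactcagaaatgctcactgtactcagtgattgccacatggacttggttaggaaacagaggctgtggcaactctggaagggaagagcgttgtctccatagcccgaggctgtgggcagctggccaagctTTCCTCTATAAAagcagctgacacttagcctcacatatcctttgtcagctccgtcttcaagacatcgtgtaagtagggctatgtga
S100a9 (chr3:90695672-90695971, minus strand): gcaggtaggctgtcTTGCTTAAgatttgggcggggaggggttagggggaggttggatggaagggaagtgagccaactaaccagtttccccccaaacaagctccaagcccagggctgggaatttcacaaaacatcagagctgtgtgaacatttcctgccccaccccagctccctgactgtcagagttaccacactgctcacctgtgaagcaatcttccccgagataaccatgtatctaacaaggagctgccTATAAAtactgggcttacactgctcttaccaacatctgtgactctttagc
S100a11 (chr3:93520246-93520545, plus strand): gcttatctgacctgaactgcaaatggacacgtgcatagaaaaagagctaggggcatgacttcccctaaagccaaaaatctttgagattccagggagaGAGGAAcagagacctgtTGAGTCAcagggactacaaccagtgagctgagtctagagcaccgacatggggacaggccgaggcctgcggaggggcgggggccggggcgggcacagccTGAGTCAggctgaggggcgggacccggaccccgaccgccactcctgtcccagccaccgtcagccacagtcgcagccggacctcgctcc
In S100a8 a TATAAA lies at -30 to -25 from the start, and GAGGAA, read on the minus strand as TTCCTC, lies at -36 to -31 and at -170 to -165. In S100a9 the TATAAA lies at 1 to 6, on the annotated start itself, and a match to the C/EBP site at -236 to -229. Besides these genes, S100a4 was the only member whose window held TATAAA, so that 3 of 7 did, against 13.6% of 32817 mouse promoter windows of this length. GAGGAA occurred in the windows of S100a8, S100a11 and S100a4 and in 28.3% of all windows. TTGCNNAA was found in S100a9 only among the members and in 10.8% of all windows. TGANTCA occurred at 2 places in S100a11, in no other member and in 7.81% of all windows. CCAAT occurred in S100a6 and in 37.4% of all windows. The windows of S100a1 and S100a13, which share 204 bases as these starts place them, held none of these letters. A match describes the letters of the window and is no evidence of binding.

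The table holds FPKM values (fragments scaled to transcript length and to the mapped fragments of the library). Values have 2 decimals. They are not counts. The sequencing depth behind them is not known, and counting error could not be computed. Genes of hemoglobin took 92.6% to 96.4% of the summed FPKM, which fits the labelled tissue, and markers of neutrophils, monocytes, lymphocytes and platelets were detected. Groups were compared with limma on log2(FPKM + 0.1) over the 5339 genes that averaged 0.5 FPKM or more, a scale that understates the change of low genes, with Benjamini-Hochberg adjustment over all of them. The median log2 fold change of these genes was -1.07, and rescaling of the libraries by the median of ratios brought it to -0.0016. Relative to the median of -1.07, the log2 fold change was -2.28 for S100a8, -2.51 for S100a9, -0.52 for S100a1 and 0.82 for S100a13, and that of the other members is given with their values.

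The mRNAs of S100a8 and S100a9, which encode the subunits of calprotectin, were the most abundant S100 transcripts in control blood and fell most with Nar. S100a8 was listed at 447 FPKM (Ctrl 1) and 399.9 (Ctrl 3) against 34.7 (Nar 1) and 49.1 (Nar 3). S100a9 was listed at 724 FPKM (Ctrl 1) and 554 (Ctrl 3) against 41.5 (Nar 1) and 67.5 (Nar 3). For both genes, each Nar library lay far below each control library. The mean of S100a8 was 423 ± 33.4 FPKM (SD, n = 2) in controls and 41.9 ± 10.2 with Nar, 10.1-fold lower. The mean of S100a9 was 639 ± 121 FPKM in controls and 54.5 ± 18.3 with Nar (SD, n = 2), 11.7-fold lower. The log2 fold change was -3.35 for S100a8 (standard error 0.477, limma adjusted p = 0.00448) and -3.58 for S100a9 (standard error 0.484, limma adjusted p = 0.00427). Both calls were lost after median-of-ratios scaling (limma adjusted p = 0.0649 and 0.0614) and without the filter (0.113 for both). With each library left out in turn, S100a8 ran from -3.60 to -3.10 and S100a9 from -3.93 to -3.23. Neither call held in all of these fits. Of the tested genes, 0.824% had a lower log2 fold change than S100a8 and 0.543% a lower one than S100a9. Among genes other than hemoglobin genes, the rank of S100a9 by FPKM was 11 (Ctrl 1) and 34 (Ctrl 3) against 193 (Nar 1) and 107 (Nar 3).

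**Figure D1:**
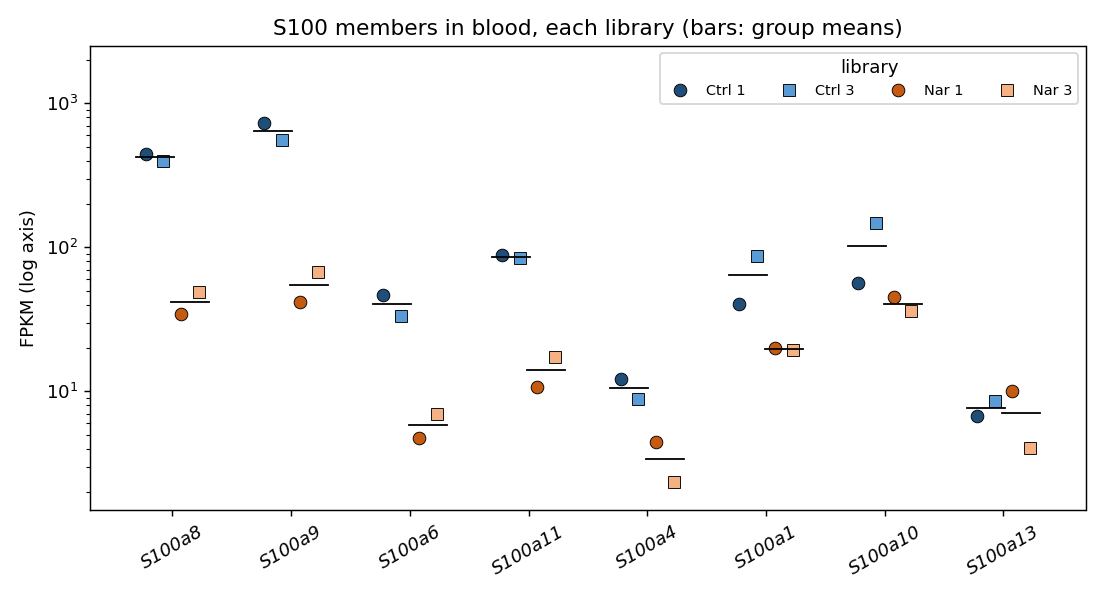
FPKM (log axis) of the 8 S100 members in each of the 4 libraries, with bars at the group means of 2 libraries. S100a8 and S100a9 lie between 399.9 and 724 in controls and between 34.7 and 67.5 with Nar, while the libraries of S100a13 overlap.

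The proportion of the pair to each other differed far less than their levels. The ratio of S100a9 to S100a8 FPKM was 1.62 (Ctrl 1) and 1.38 (Ctrl 3) against 1.20 (Nar 1) and 1.37 (Nar 3). Both Nar ratios were below both control ratios, Ctrl 3 and Nar 3 by little, and the difference of the group means (-0.217) is of the size of the spread between replicates (SD 0.167 in controls and 0.124 with Nar). On the log2 scale the ratio of S100a8 to S100a9 was higher with Nar by 0.22, and by 0.11 without Ctrl 1, 0.34 without Ctrl 3, 0.13 without Nar 1 and 0.32 without Nar 3.

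S100a6 (calcyclin; NCBI Gene 20200) and S100a11 (calgizzarin; NCBI Gene 20195), the next largest changes, also fell. S100a6 was listed at 47.0 FPKM (Ctrl 1) and 33.5 (Ctrl 3) against 4.71 (Nar 1) and 6.99 (Nar 3), and its group means, 40.2 ± 9.48 and 5.85 ± 1.61 (SD, n = 2), differed 6.88-fold. S100a11 was listed at 88.1 FPKM (Ctrl 1) and 84.0 (Ctrl 3) against 10.7 (Nar 1) and 17.3 (Nar 3), and its group means, 86.1 ± 2.85 and 13.99 ± 4.70 (SD, n = 2), differed 6.15-fold. In both genes the groups were well apart and Nar 1 was the lowest library, as it was for S100a8 and S100a9. The log2 fold changes were -2.77 for S100a6 (standard error 0.51, limma adjusted p = 0.00911) and -2.65 for S100a11 (standard error 0.517, limma adjusted p = 0.0112). Relative to the median of all tested genes these were -1.70 and -1.58. Both calls were lost when any library was left out (limma adjusted p from 0.0826 to 0.0925 for S100a6 and from 0.0826 to 0.102 for S100a11).

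S100a4 (NCBI Gene 20198), the metastasis-associated partner of non-muscle myosin, fell less. It was listed at 12.1 FPKM (Ctrl 1) and 8.82 (Ctrl 3) against 4.44 (Nar 1) and 2.36 (Nar 3). The groups did not overlap, and the lowest value was that of Nar 3, unlike in the 4 genes above. It fell by 1.64 on the log2 scale (standard error 0.497, limma adjusted p = 0.0339), or -0.57 relative to the median of all tested genes. The call was lost with hemoglobin genes removed (-1.05, limma adjusted p = 0.24), at a minimum of 5 FPKM (adjusted p = 0.0575), with a replicate block (adjusted p = 0.0661) and when any library was left out (adjusted p from 0.0938 to 0.307).

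S100a1 (NCBI Gene 20193) fell by a similar amount, and here the control libraries differed from each other. It was listed at 40.4 FPKM (Ctrl 1) and 87.5 (Ctrl 3) against 19.9 (Nar 1) and 19.4 (Nar 3). The Nar libraries were almost equal, and Ctrl 3 was far above Ctrl 1. The change on the log2 scale was -1.59 (standard error 0.556, limma adjusted p = 0.0486), close to the threshold. Without Ctrl 3 it was -1.03 (limma adjusted p = 0.133), without Ctrl 1 it was -2.15 (limma adjusted p = 0.0826), and with hemoglobin genes removed it was -0.97 (limma adjusted p = 0.191). The call was also lost with a pseudocount of 1 (adjusted p = 0.0594), at a minimum of 5 FPKM (adjusted p = 0.0581), with a replicate block (adjusted p = 0.139), without Nar 1 (adjusted p = 0.198) and without Nar 3 (adjusted p = 0.283).

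S100a10 (p11; NCBI Gene 20194), which pairs with annexin A2, showed the same split of the controls and did not pass the test. It was listed at 56.5 FPKM (Ctrl 1) and 147 (Ctrl 3) against 44.9 (Nar 1) and 35.9 (Nar 3). The groups did not overlap, but Ctrl 1 was nearer to Nar 1 than to Ctrl 3. The log2 fold change was -1.18 (95% interval -2.51 to 0.15, limma adjusted p = 0.117), without Ctrl 3 it was -0.49 (limma adjusted p = 0.368) and without Ctrl 1 it was -1.87 (limma adjusted p = 0.0826). Relative to the median of all tested genes it was -0.11.

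S100a13 (NCBI Gene 20196) was the 1 member whose groups overlapped. It was listed at 6.75 FPKM (Ctrl 1) and 8.6 (Ctrl 3) against 10.1 (Nar 1) and 4.03 (Nar 3), so that the highest and the lowest value were both those of Nar libraries. The log2 fold change was -0.25 (95% interval -1.49 to 0.99, limma adjusted p = 0.699), and 90.2% of tested genes had a lower one. It was 0.91 after median-of-ratios scaling (limma adjusted p = 0.425) and 0.40 without Nar 3 (limma adjusted p = 0.708), so no direction can be given. S100a1, which starts within the same region on the other strand, stood at 5.98 times the FPKM of S100a13 (Ctrl 1) and 10.2 times (Ctrl 3) against 1.97 times (Nar 1) and 4.82 times (Nar 3).

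In all, 6 of the 8 members passed the limma test as lower with Nar and 0 as higher, where 39.6% of all tested genes were called lower and 0.187% higher. At an unadjusted p-value under 0.05 the counts were the same 6 and 0, among 3036 of the 5339 tested genes in either direction. In 7 members each Nar value was under each control value, which held for 78.3% of all tested genes, and in 0 members each Nar value was above, which held for 1.27%. A log2 fold change under -1 was found in 7 members and in 56.4% of tested genes. With hemoglobin genes removed, 4 members were called lower (S100a8, S100a9, S100a6 and S100a11), against 3.02% of tested genes. The median log2 fold change of the members was -2.15, against -1.07 over the table. After median-of-ratios scaling the members' median was -0.99, and none of the 8 passed, where 0.599% of tested genes were called lower. At an unadjusted p-value under 0.05 it was 4 of the 8 members, all lower, among 797 of 5339 tested genes in either direction. S100a8 then had a log2 fold change of -2.18 (95% interval -3.21 to -1.15, limma adjusted p = 0.0649), S100a9 one of -2.40 (interval -3.49 to -1.31, adjusted p = 0.0614), S100a6 one of -1.60 (adjusted p = 0.137) and S100a11 one of -1.48 (adjusted p = 0.165), while S100a4, S100a1 and S100a10 lay between -0.49 and -0.01 (adjusted p from 0.766 to 0.998). Without Ctrl 1 or without Ctrl 3, no gene of the whole table reached an adjusted p-value under 0.05 in limma (2682 and 2133 did unadjusted). Without Nar 1 the count of members called lower was 1 (S100a9), among 254 of 5339 tested genes, and without Nar 3 it was 2 (S100a8 and S100a9), among 213.

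**Figure D2:**
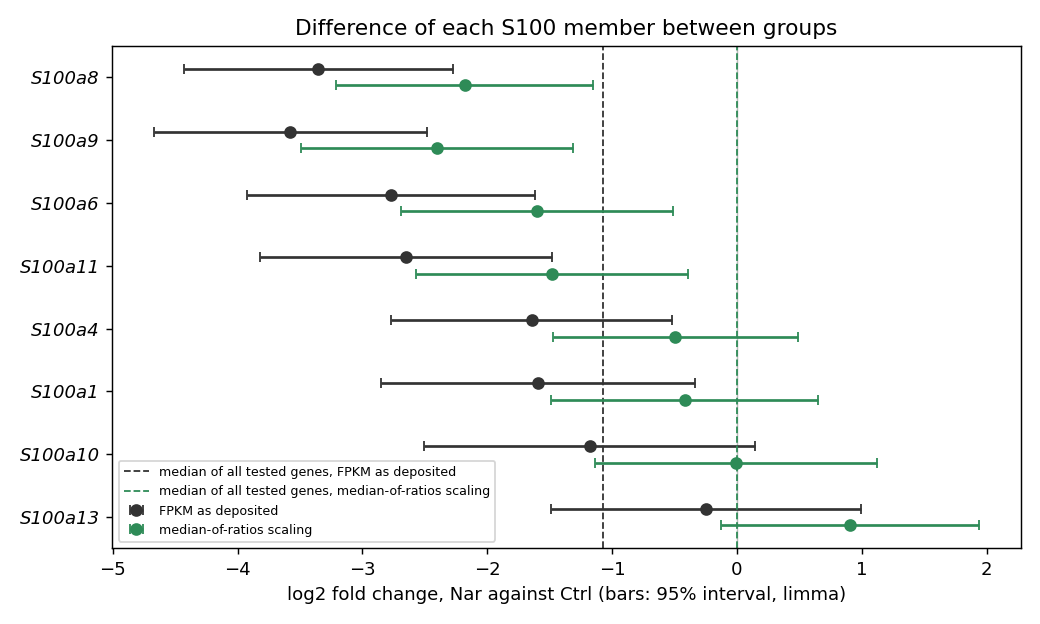
Log2 fold change of each S100 member between Nar and control libraries (2 against 2), with 95% intervals from limma, for FPKM as deposited (black) and after median-of-ratios scaling (green); dashed lines mark the median of all tested genes, -1.07 and -0.0016. On both scales the intervals of S100a8, S100a9, S100a6 and S100a11 lie below that median, and those of S100a4, S100a1 and S100a10 hold it.

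To compare the neutrophil pair with the other 6 members without the influence of library scaling, the mean log2(FPKM + 0.1) of S100a8 and S100a9 minus the median of the other 6 was taken within each library. It was 3.71 (Ctrl 1) and 3.14 (Ctrl 3) against 1.86 (Nar 1) and 2.38 (Nar 3). The pair thus stood further above the other members in both control libraries than in either Nar library, with a difference of the group means of -1.31 (SD 0.396 in controls and 0.366 with Nar, n = 2 each). The difference ran from -1.59 to -1.03 when each library was left out in turn. It is a description of chosen members and was not tested, and 2 libraries against 2 allow an exact permutation test no two-sided p under 0.33. The 6 were not alike: S100a6 and S100a11 lay nearer to the pair in log2 fold change than to S100a10 and S100a13.

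The make-up of the S100 transcripts therefore differed between the groups. Summed over the 8 members, FPKM came to 1422 (Ctrl 1) and 1323 (Ctrl 3) against 171 (Nar 1) and 203 (Nar 3). S100a8 and S100a9 supplied 82.4% (Ctrl 1) and 72.1% (Ctrl 3) of that sum against 44.6% (Nar 1) and 57.5% (Nar 3), lower in both Nar libraries. S100a10 supplied 3.98% (Ctrl 1) and 11.1% (Ctrl 3) against 26.3% (Nar 1) and 17.7% (Nar 3), and S100a1 supplied 2.84%, 6.62%, 11.7% and 9.59%. S100a6 kept a share of 2.54% to 3.45% in all 4 libraries, the groups overlapping. Of all FPKM outside hemoglobin genes, the 8 members took 1.90% (Ctrl 1) and 1.21% (Ctrl 3) against 0.259% (Nar 1) and 0.356% (Nar 3).

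**Figure D3:**
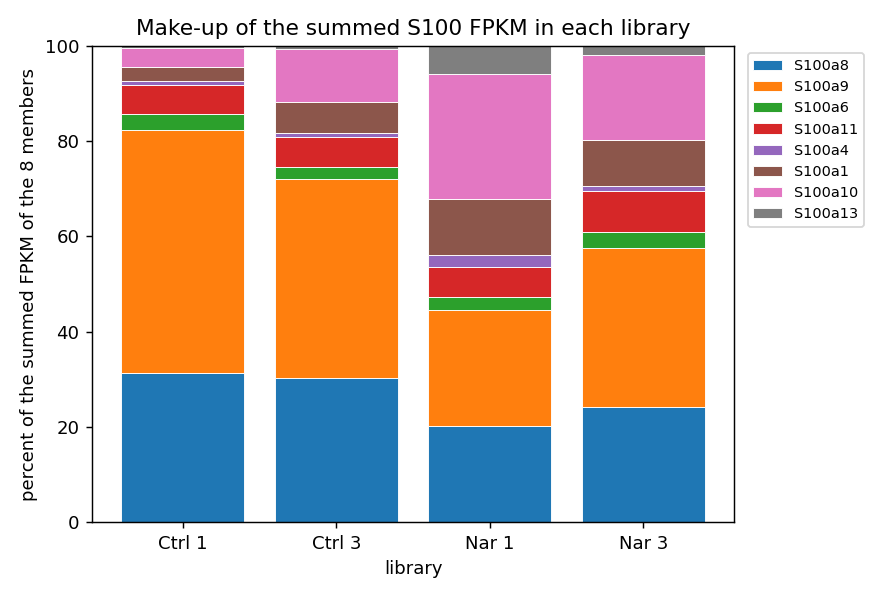
Share of each member in the summed FPKM of the 8 S100 members, as percent (stacked bars from 0 to 100) in each library. S100a8 and S100a9 together make up 82.4% and 72.1% in the controls and 44.6% and 57.5% in the Nar libraries, where S100a10, S100a1 and S100a13 take larger shares.

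By level per length, the order in controls was S100a9, S100a8, S100a10, S100a11, S100a1, S100a6, S100a4 and S100a13. The libraries of S100a9 and S100a8 did not overlap with each other or with the next gene, whereas from S100a10 to S100a6 each gene overlapped with its neighbor in this order. With Nar, S100a9 (54.5 FPKM), S100a8 (41.9 FPKM) and S100a10 (40.4 FPKM) overlapped in turn, so that S100a10 stood beside the calprotectin genes. S100a1 (19.7 FPKM) then stood above S100a11 (13.99 FPKM), without overlap.

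Neutrophil markers, and in part monocyte markers, were lower with Nar as the members were, and in bulk blood fewer cells of a type and less RNA per cell cannot be told apart. Of 17 neutrophil markers, 15 could be tested and all 15 were called lower with Nar (39.6% of all tested genes were), with a median log2 fold change of -3.53. After median-of-ratios scaling 7 of them were called lower (0.599% of all tested genes were), with a median of -2.45. Their summed FPKM was 575 to 631 in controls and 34.3 to 53.9 with Nar. Mpo and Elane, primary granule genes of immature neutrophils, were at 0.24 FPKM or less in every library and at 0 in 1 Nar library each. Of 10 monocyte markers, 9 were tested, 6 were called lower and the median was -1.73 (-1.20 without Ctrl 1 and -2.57 without Ctrl 3). Single monocyte markers ran from -4.17 (Ly6c2) to -0.47 (Cx3cr1). After median-of-ratios scaling 1 monocyte marker was called lower and the median was -0.61. The summed FPKM of the monocyte markers was 58.7 to 89.5 in controls and 8.91 to 18.0 with Nar. None of the 8 platelet markers passed, with a median of -1.21 that was -0.04 after median-of-ratios scaling, -0.41 without Ctrl 3 and -1.98 without Ctrl 1, and their summed FPKM was 763 (Ctrl 1) and 2408 (Ctrl 3) against 634 (Nar 1) and 496 (Nar 3). None of the 15 lymphocyte markers tested passed either (median -0.49, or 0.56 after median-of-ratios scaling and -0.80 without Ctrl 3; summed FPKM of all 16 markers 38.3 to 55.3 in controls and 35.3 to 37.6 with Nar), and no defining lymphocyte or platelet marker was at 0. Of 13 erythroid markers tested, 0 passed, with a median of 0.53 (1.70 after median-of-ratios scaling, 0.14 without Ctrl 1, 0.92 without Ctrl 3 and 0.21 without Nar 1) and a summed FPKM of 8490 to 10275 in controls and 9584 to 10387 with Nar.

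Taken against these markers within each library, the members fell into groups. The log2 level of S100a8 exceeded the mean log2 level of the 15 neutrophil markers by 4.48 (Ctrl 1) and 4.58 (Ctrl 3) against 4.64 (Nar 1) and 4.82 (Nar 3). For S100a9 the excess was 5.18, 5.05, 4.90 and 5.27. The difference between Nar and control means of this excess was 0.20 for S100a8 and -0.03 for S100a9, and for S100a9 the groups overlapped. For S100a6 and S100a11 the excess over neutrophil markers was higher with Nar, by 0.78 and 0.90, with no overlap between the groups. S100a10 followed the platelet markers: its log2 level minus their mean was -0.40 (Ctrl 1) and -0.59 (Ctrl 3) against -0.57 (Nar 1) and -0.39 (Nar 3), a difference of 0.01 between the groups. S100a1 minus the platelet markers was -0.88, -1.33, -1.74 and -1.28 in the same order of libraries. The part that the number of each cell type has in these values was not tested.

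The likeness of profiles was measured as the root mean square distance between centred log2 values over the 4 libraries. S100a8 and S100a9 lay at 0.122 and 0.141 from the mean of the neutrophil markers, and at 0.928 and 1.03 from that of the monocyte markers. That monocyte mean pools 9 unlike markers. The log2 fold changes of Ly6c2 (-4.17), Adgre1 (-3.34) and Fcgr4 (-2.38) lay within the range of the neutrophil markers, -4.49 to -2.24. Those of the other monocyte markers did not. S100a6 (0.409) and S100a11 (0.473) were also nearest to the neutrophil markers, at a greater distance. S100a4 was nearest to the monocyte markers (0.326, against 1.05 from neutrophil markers). S100a10 (0.092) and S100a1 (0.302) were nearest to the platelet markers. S100a13 was close to no list, its nearest being the erythroid markers at 0.464. With 4 libraries that share their scaling, such distances are descriptions only.

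**Figure D4:**
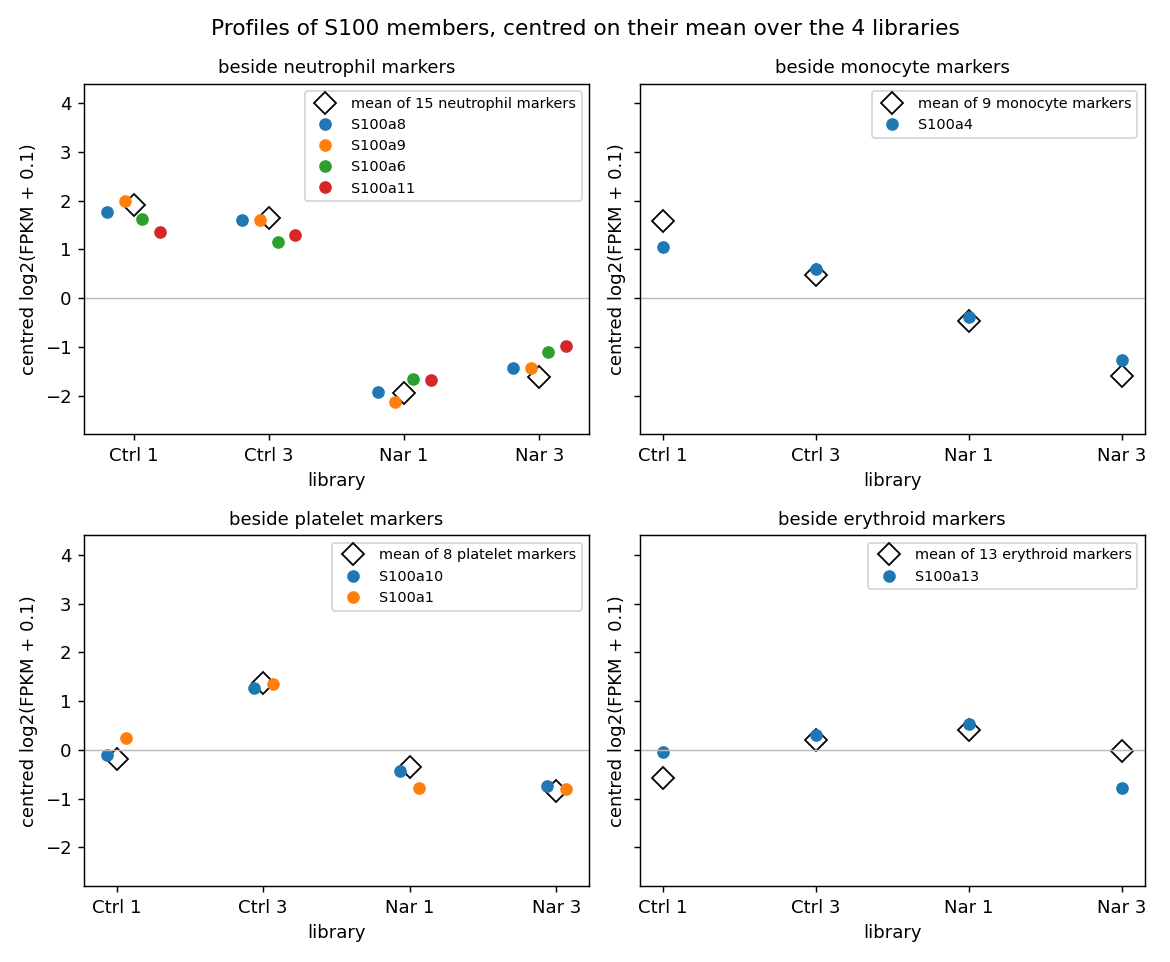
Log2(FPKM + 0.1) of each S100 member in each library, centred on its mean over the 4 libraries (circles), beside the mean of the marker list it lies nearest to (open diamonds). S100a8 and S100a9 lie at 0.122 and 0.141 from the neutrophil markers and S100a10 at 0.092 from the platelet markers, with Ctrl 3 highest.

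Among 1075 other genes that averaged 5 FPKM or more, the profiles nearest to that of the calprotectin pair were those of Lilr4b (distance 0.0236), Cd300lf (0.0954), Wfdc21 (0.111), Lrg1 (0.112) and Junb (0.173). Lilr4b (gp49A) encodes an immunoglobulin-like receptor, Cd300lf an inhibitory receptor of myeloid cells, Lrg1 a leucine-rich glycoprotein of neutrophil granules, Wfdc21 a secreted whey acidic protein-type factor, and Junb a subunit of the transcription factor AP-1. Lilr4b, the nearest, was listed at 13.99 FPKM (Ctrl 1) and 11.5 (Ctrl 3) against 0.82 (Nar 1) and 1.36 (Nar 3). It belongs to a family of similar genes between which alignment can divide reads.

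Of 13 genes for binding partners and receptors of S100 proteins, 9 could be tested, 4 were called lower and 0 higher, where 39.6% of all tested genes were called lower and 0.187% higher. Their median log2 fold change was -1.12, close to that of all tested genes. Anxa1, the annexin bound by S100A11, fell most: it was listed at 32.7 FPKM (Ctrl 1) and 19.0 (Ctrl 3) against 2.44 (Nar 1) and 3.67 (Nar 3), with a change of -3.02 on the log2 scale (standard error 0.512, limma adjusted p = 0.0073). Anxa2, the annexin bound by S100A10, was listed at 19.5 FPKM (Ctrl 1) and 14.9 (Ctrl 3) against 4.28 (Nar 1) and 3.01 (Nar 3) and fell by 2.21 on the log2 scale (SE 0.478, limma adjusted p = 0.0154). Anxa2 did not share the high Ctrl 3 value of S100a10, and the ratio of S100a10 to Anxa2 FPKM was 2.90 (Ctrl 1) and 9.85 (Ctrl 3) against 10.5 (Nar 1) and 11.9 (Nar 3). The ratio of S100a11 to Anxa1 was steadier, at 2.70 (Ctrl 1) and 4.42 (Ctrl 3) against 4.37 (Nar 1) and 4.72 (Nar 3). Anxa11 and Cacybp, the partners of S100A6, fell by 1.69 and 1.20 on the log2 scale (limma adjusted p = 0.0247 and 0.0381). Relative to the median of all tested genes these changes were -0.62 and -0.12, so that Cacybp lay close to that median. Myh9, the myosin heavy chain bound by S100A4, did not pass, with a log2 fold change of -1.12 (limma adjusted p = 0.134), nor did Anxa6 (-0.92, adjusted p = 0.0965) or Ahnak (-0.95, adjusted p = 0.0735), a large scaffold protein bound by the S100A10 complex. After median-of-ratios scaling none of the 9 passed, and Anxa1 had -1.86 (limma adjusted p = 0.108).

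Of the receptors for extracellular calprotectin, Tlr4 and Ager were low in this blood, and Bsg and Cd36 were not. Tlr4 was listed at 0.46 FPKM (Ctrl 1) and 0.47 (Ctrl 3) against 0.12 (Nar 1) and 0.04 (Nar 3), and Ager, which encodes RAGE, at 0.15, 0.08, 0.02 and 0 in the same order. Both were under the minimum for testing, as were Il1a and Fgf1. Bsg (basigin), a further receptor of S100A9 that red cells also carry, was listed at 26.9 FPKM (Ctrl 1) and 73.7 (Ctrl 3) against 45.2 (Nar 1) and 44.2 (Nar 3), with a log2 fold change of 0.01 (95% interval -1.34 to 1.35). Cd36, a scavenger receptor that binds the calprotectin complex with arachidonic acid, had a log2 fold change of 0.23 (interval -0.96 to 1.42). For both the Nar libraries lay between the 2 control libraries. After median-of-ratios scaling Bsg had 1.18 (interval 0.02 to 2.34, limma adjusted p = 0.328) and Cd36 had 1.39 (interval 0.36 to 2.42, limma adjusted p = 0.167), neither past the threshold.

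**Figure D5:**
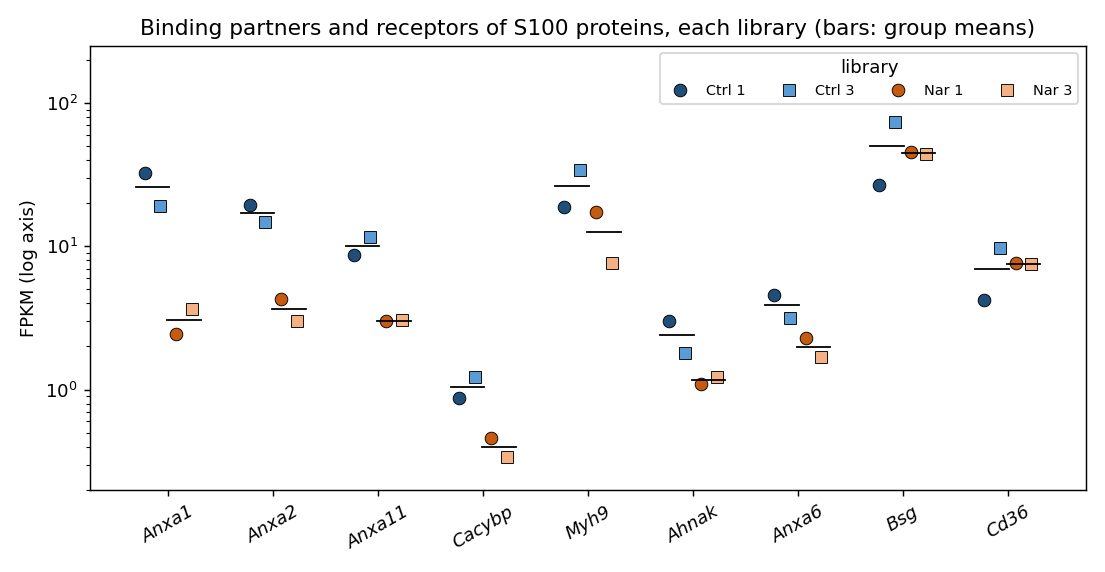
FPKM (log axis) of the 9 tested genes for S100 binding partners and receptors in each library, ordered by log2 fold change, with bars at the group means. Anxa1 and Anxa2 lie below both controls in both Nar libraries, while Bsg and Cd36 overlap.

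Of 10 further S100 genes looked for, 6 had values and all 6 stayed at 0.16 FPKM or less. S100a16 was listed between 0.04 and 0.16 FPKM, S100b between 0.05 and 0.11, S100a3, S100a7a and S100a14 above 0 in 1 library each, and S100g at 0 throughout. The rows of 3 more, S100a2, S100a5 and S100z, were blank in all 4 libraries, and S100a7l2 had no row.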

How the data were processed

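Blood mRNA of 4 C57BL/6 mouse libraries was analysed, 2 from Nar-treated and 2 from PBS-treated mice, grouped and numbered by their sample titles. The authors deposited FPKM values per gene with 2 decimals. According to the methods, filtered reads were mapped to reference genes by bowtie-2; the submitters' processing notes also list TopHat2, Cufflinks and GRCm38, with no roles. All 4 value columns matched a library and 0 were left over. A search for steps of 1 read in FPKM times GENCODE transcript length found none (strength at most 0.0547 on a scale from 0 to 1), so depth stays unknown.

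Of 23136 genes listed, 17823 had values, and 5339 that averaged 0.5 FPKM or more were tested with limma 3.58.1 (lmFit, eBayes with trend; R 4.3.3) on log2(FPKM + 0.1), two-sided, with Benjamini-Hochberg adjustment; a call was an adjusted p under 0.05. The steps were tested on simulated data. DEGseq, the method of the study, needs read numbers. The members, marker lists and partner lists were chosen with earlier results of these data known. Named genes were the 8 members, S100 family, partner and receptor genes, and the 5 genes, of those averaging 5 FPKM or more, nearest in profile to S100a8 and S100a9. A few markers from the lists, and genes nearest in profile to the other 6 members, were named after their values were seen. Alternatives were other pseudocounts, filters and scalings, no trend, a replicate block and each library left out. Promoters and positions came from RefSeq (GRCm38.p6); protein sequences were not used here. Plots were drawn with matplotlib 3.10.9.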

Additional observations from a re-analysis of the deposited data

How the results depend on the processing

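Calls depended strongly on scaling, filter and single libraries, and no cause was tested. With median-of-ratios scaling 32 genes were called lower (10 higher), 0 members and 0 partner genes; with hemoglobin genes removed 161 (11 higher), and 1 partner gene. Without the filter 0 genes were called in either direction, so 0 members and 0 partner genes (4978 of 16382 genes had an unadjusted p under 0.05, 6 members among them); at a minimum of 5 FPKM, left with 1083 genes, 116 lower and 1 higher. Calls of higher genes numbered 6 with TPM and 4 without the trend. Leaving out 1 library, which leaves 1 residual degree of freedom, gave 0 to 254 genes lower, 0 to 5 higher, 0 to 2 members and 0 partner genes (0 in all 4 fits). The log2 fold change of S100a13 reversed to 0.37 with hemoglobin removed, 0.91 with median-of-ratios scaling and 0.40 without Nar 3 (-0.90 without Nar 1), and the lymphocyte median reversed to 0.087 and 0.56 under the first 2 of these. Over 14 alternatives S100a8 ran from -3.60 to -2.18 (adjusted p under 0.05 in 9) and S100a9 from -3.93 to -2.40 (in 10); S100a10 passed in 1 and S100a13 in 0.

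The labels do not say whether the shared numbers 1 and 3 pair the libraries, and they were not treated as pairs. Same-numbered libraries had deviations from their group means that correlated at -0.153, a value that 2 libraries a group give only once and that cannot settle the pairing. With the replicate block 1802 genes were lower, 13 higher, and 4 members and 3 partner genes were called; S100a4 (adjusted p = 0.0661) and S100a1 (adjusted p = 0.139) were lost. With the crossed replicate block, chosen after seeing the data, 3211 genes were lower and 22 higher, 7 members and 7 partner genes lower. S100a10 passed in this block only (limma adjusted p = 0.0221). The same block is among the alternatives in which S100a8 and S100a9 passed.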

Other observations

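The rule of nearest profiles was also applied to the other 6 members, a choice made after their values were seen. S100a6 lay nearest to Cebpb (distance 0.075), a transcription factor of myeloid cells, to Pla2g7 (0.0936) and to the chemokine gene Ccl6 (0.0958). Cebpb was listed at 17.0 FPKM (Ctrl 1) and 12.3 (Ctrl 3) against 1.67 (Nar 1) and 2.21 (Nar 3). S100a11 lay nearest to Ccl6 (0.11) and to the haptoglobin gene Hp (0.137), which was listed at 27.9, 26.2, 2.95 and 4.26 FPKM in the same order.

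S100a10 lay nearest to Fkbp8 (0.0397), Sec11c (0.0552) and Clu (0.0619), and S100a1 to Tspo (0.0717), Mbd2 (0.074) and Ctla2a (0.0745). Clu, which encodes clusterin, a protein stored in platelet granules, was listed at 213 FPKM (Ctrl 1) and 496 (Ctrl 3) against 156 (Nar 1) and 122 (Nar 3), so that Ctrl 3 stood out as it did for S100a10 and S100a1. S100a4 lay nearest to Ncf4 (0.12), a subunit of the phagocyte oxidase, and Ifngr1 (0.134), a receptor chain for interferon-gamma. S100a13 lay nearest to Gvin1 (0.0535), an interferon-induced GTPase gene with similar copies, which was listed at 19.9, 27.2, 32.4 and 13.2 FPKM and shared the high Nar 1 and low Nar 3 values.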
